A study of Homo sapiens with 24 samples.

Results

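HT29 is an established human colorectal carcinoma cell line, and the transcriptomes described here compare HT29 clones that had lost β-CATENIN with clones that had kept it. The comparison comprised 8 of the 24 RNA-seq libraries of the series, chosen by their cell line label, and the other 16 libraries belonged to HCT116 and SW480 cells. In the KO clones 28 and 38, exon 7 had been removed from both alleles of *CTNNB1* with CRISPR/Cas9. The WT clones 11 and 40 carried intact *CTNNB1*. Each clone went through 2 independent rounds of sequencing, labelled A and B, which gave 4 KO and 4 WT libraries, named here by clone and round as in KO 28A. No other treatment is given, and cells of both genotypes grew in the same medium. With 2 clones per genotype, a difference between genotypes cannot be told apart from other differences that the clones had acquired, and p-values over 4 against 4 libraries count the rounds of a clone as separate samples. In bulk RNA, a change in the share of cells that express a gene and a change in its level per cell cannot be told apart either.

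β-CATENIN is the transcriptional effector of the canonical WNT pathway and a component of adherens junctions. Without WNT it is bound by the APC and AXIN scaffold, phosphorylated and degraded, whereas stabilised β-CATENIN enters the nucleus and activates target genes together with TCF/LEF factors. Truncated APC keeps the pathway active in HT29 cells, and in the gut epithelium the pathway is best known for maintaining stem and progenitor cells at the expense of differentiation. The deleted exon is shown because its length defines the knock-out. Exon 7 of transcript CTNNB1-201 lies at chr3:41268699-41268843 of GRCh37 on the plus strand and reads:

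CTNNB1 exon 7: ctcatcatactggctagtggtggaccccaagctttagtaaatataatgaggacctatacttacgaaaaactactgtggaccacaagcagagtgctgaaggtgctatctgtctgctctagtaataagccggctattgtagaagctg

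Its 145 bases leave 1 base beyond whole codons. Of the 781 codons of β-CATENIN, 312 precede this exon, and joining the preceding exon to exon 8 shifted the reading frame in the reference sequence, so that 5 further codons were followed by a stop at codon 318.

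Values are normalised read counts, i.e. the reads of a gene corrected for library size. Between 22297049 and 28414707 reads per HT29 library fell on genes. Of the 12 epithelial and colonic marker genes, 10 passed the filter on low values, with summed counts of 490867 to 784703 in KO and 325837 to 466941 in WT libraries. Among the markers of other cell types, 6 of 10 fibroblast, 3 of 7 endothelial and 7 of 10 leukocyte genes had at most 3 reads in each of the 8 libraries, *COL1A2*, *CDH5* and *PTPRC* among them. One library stood apart from its partner. Over 14921 genes, KO 38A and KO 38B correlated with r = 0.952, whereas the rounds of the other 3 clones reached 0.988 to 0.990. The rounds of KO 38 differed by more than 1 on the log2 scale for 22.7% of genes and those of the other clones for 3.44% to 3.98%. The median log2 difference of round A minus round B over 81 ribosomal protein genes was −1.18 in KO 38, compared with −0.41 in WT 11, −0.10 in WT 40 and 0.20 in KO 28. Results are therefore also given without KO 38B. KO 38A then is the only library of its clone and is assumed to vary like the other groups.

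Between KO and WT libraries, 343 of 14921 genes tested were differentially expressed (2.3%), with an absolute log2 difference over 1 and an adjusted p under 0.05 from limma with Benjamini-Hochberg adjustment, the thresholds used throughout. Higher levels in KO cells were found for 283 of these differentially expressed genes (DEGs, 1.9% of all tested) and lower levels for 60 (0.402%). Each KO clone was then compared on its own with the 4 WT libraries. KO 28 gave 595 DEGs (3.99%), 438 higher (2.94%) and 157 lower (1.05%). KO 38 gave 1127 (7.55%), 693 higher (4.64%) and 434 lower (2.91%). The KO clones differed from each other in 767 genes (5.14%). The changes that held in both clones concerned 246 genes (1.65%), of which 199 were higher (1.33%) and 47 lower (0.315%) than in WT cells. They made up 41.3% of the DEGs of KO 28 and 21.8% of those of KO 38. Both comparisons used the same WT libraries, so that a deviation of the WT clones enters both. A further 25 genes (0.168%) passed in both clones with opposite directions. Of the 343 DEGs between the genotypes, 233 passed in both clones, 72 only in KO 38, 31 only in KO 28 and 7 in neither on its own. All 343 had libraries that did not overlap between genotypes, which largely follows from how DEGs were called and is no further support for them. Of all genes tested, 13.0% did not overlap.

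How many DEGs were found depended on how the clones were treated. With the clone as a random effect 121 of the 343 DEGs between genotypes were left, while 205 genes still passed in both clones. The 2 numbers are not comparable. For the 205, each KO clone was a group of its own, so variation between KO clones could not enter the random effect. When the rounds of each clone were averaged, so that 2 clones were compared with 2, limma called 0 genes, with 849 at an unadjusted p under 0.05, whereas the DESeq2 Wald test on the 8 libraries called 826 and edgeR 295. Without KO 38B, 331 DEGs remained between genotypes in number, 435 between KO 38A and WT, and 164 genes passed in both clones, 150 of them among the 246. Leaving out any other single library lowered the number of DEGs between genotypes to 170 (KO 28A), 224 (KO 28B), 208 (KO 38A), 145 (WT 11A), 188 (WT 11B), 150 (WT 40A) and 173 (WT 40B), and the number that passed in both clones fell to 57 without KO 28A and 78 without KO 28B. Without KO 38A, 3531 genes differed between KO 38B and WT.

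*CTNNB1* itself checks the labels. Its count was 256 and 293 in KO 28A and 28B, 313 and 337 in KO 38A and 38B, and 6019, 6067, 5883 and 6113 in WT 11A, 11B, 40A and 40B. All KO libraries were far below all WT libraries, at 4.98% of the WT mean, and the log2 difference −4.33 (standard error 0.14, adjusted p = 2.5e-06) held in both clones (−4.45 in KO 28 and −4.21 in KO 38). The gene (ENSG00000168036) spans chr3:41236232-41301587 of GRCh37, and the deposited values do not separate reads by exon.

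Loss of β-CATENIN was accompanied by lower transcript levels of a part of the known WNT targets. Of 40 WNT feedback genes and targets, 28 could be tested, of which 8 were lower in both KO clones and 1 was higher, against 0.315% and 1.33% of all genes. The median log2 difference of the list was −0.58, compared with 0.03 over all genes. The lower genes were *AXIN2*, *LGR5*, *TRABD2A*, *NR2F1*, *ADAM19*, *TCF7*, *EPHB2* and *ZNRF3*, and the higher one was *PLAUR*, the urokinase receptor. Counting DEGs between genotypes, 7 members were lower, of which 2 were left with the clone as a random effect, and without KO 38B 7 members in all passed in both clones. *AXIN2*, a scaffold of the degradation complex and a feedback inhibitor, stood at 15.1 and 22.5 in KO 28A and 28B, 158 and 119 in KO 38A and 38B, and 659, 590.0, 671 and 779 in WT 11A, 11B, 40A and 40B. Both clones were below all WT libraries, and KO 28 was lower than KO 38 (−5.11 in KO 28 and −2.28 in KO 38; direct comparison 2.83, adjusted p = 0.0017). The log2 difference −3.70 (standard error 0.70, adjusted p = 0.032) was not stable, since leaving out any one library except KO 38A or KO 38B raised the adjusted p above 0.05 (range over 8 omissions 0.024 to 0.093). *LGR5*, the R-spondin receptor that marks intestinal stem cells, showed the same order of clones, with counts of 8.05 and 16.6 in KO 28A and 28B, 166 and 149 in KO 38A and 38B, and 1151, 842, 769 and 946 in WT 11A, 11B, 40A and 40B. The log2 difference −4.36 (standard error 0.90, adjusted p = 0.042) was likewise lost on leaving out any library except KO 38A or KO 38B (0.038 to 0.12). Its span overlaps that of *TSPAN8* on the other strand, and the counts did not use strand.

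*NR2F1*, *ADAM19* and *BMP4* stand on this list because the study had reported them as lower in these cells, and their direction is therefore no independent evidence. The study had likewise reported the fall of *AXIN2* in these cells. *NR2F1*, *ADAM19* and *AXIN2* are among the genes counted as lower in both clones. The count and the median of the list are therefore no independent result either.

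*TRABD2A*, which encodes TIKI1, a membrane protease that cleaves WNT ligands, was at 32.2 and 24.5 in KO 28A and 28B, 22.8 and 27.2 in KO 38A and 38B, and 2447, 1828, 553 and 535 in WT 11A, 11B, 40A and 40B. The 4 KO libraries lay close together, whereas the WT clones differed from each other, with WT 11 well above WT 40. The log2 difference −5.29 (standard error 0.50, adjusted p = 0.0011) held in each omission of a library (highest adjusted p 0.0068), although *TMSB10*, which overlaps its span on the other strand, was abundant and higher in KO cells. *ADAM19*, a metalloprotease gene, had 479 to 1129 in KO and 2509.8 to 4929 in WT libraries (log2 difference −2.41, standard error 0.30, adjusted p = 0.0043), and it passed in each omission as well (0.0030 to 0.022). *TCF7*, a TCF/LEF family member, had 549.9 to 1327 in KO and 2101 to 3614 in WT libraries (log2 difference −1.96, standard error 0.32, adjusted p = 0.018). KO 38A was its highest KO library, and the call was lost without KO 28A, WT 40A or WT 40B (0.0068 to 0.065). For *NR2F1*, an orphan nuclear receptor, counts were 419 and 379.7 in KO 28A and 28B, 54.1 and 72.6 in KO 38A and 38B, and 1468, 1189, 991 and 1046 in WT 11A, 11B, 40A and 40B. It passed in both clones (−1.54 in KO 28 and −4.19 in KO 38) but not between genotypes (adjusted p = 0.060), and the KO clones lay far apart. *EPHB2*, the Ephrin receptor of crypt cells, had 9.05 to 19.4 in KO and 45.1 to 61.4 in WT libraries (log2 difference −1.93, adjusted p = 0.017), and *ZNRF3*, a ubiquitin ligase that removes Frizzled receptors, had 967 to 1531 in KO and 2265 to 3115 in WT libraries (−1.14, adjusted p = 0.018). Without KO 38B, *TCF7* and *ZNRF3* no longer passed in both clones.

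The largest fall among the genes lower in both clones concerned *WNT11*, a WNT ligand best known for signalling without β-CATENIN. Its counts were 5.03 and 3.91 in KO 28A and 28B, 11.4 and 16.9 in KO 38A and 38B, and 1478, 2096, 1357 and 1798 in WT 11A, 11B, 40A and 40B, so that the KO libraries retained 0.553% of the WT mean. The log2 difference −7.53 (standard error 0.42, adjusted p = 6.6e-05) held in both clones (−8.25 in KO 28 and −6.80 in KO 38) and in each omission (highest adjusted p 7.1e-04). Among the 33 WNT ligands, receptors and core components tested it was the only gene past the thresholds in both clones. Of all genes, 0.315% were lower and 1.33% higher in both.

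Other known or proposed targets did not pass the thresholds in HT29 cells. *RNF43*, which encodes a ubiquitin ligase related to ZNRF3, had counts of 3089 and 3518 in KO 28A and 28B, 6346 and 3641 in KO 38A and 38B, and 4537, 3971, 3613 and 3753 in WT 11A, 11B, 40A and 40B. The groups overlapped, with a log2 difference of 0.01 (standard error 0.23, adjusted p = 0.99) whose sign changed between settings. *MYC*, a driver of proliferation, was at 5046 to 8519.8 in KO and 6181 to 7664 in WT libraries (−0.08, standard error 0.18, adjusted p = 0.85), and its difference turned positive without KO 38B. *TCF7L2*, the main TCF/LEF gene of the intestine, was at 1172 to 1729 in KO and 1117 to 1579 in WT libraries (0.08, standard error 0.19, adjusted p = 0.87), with a sign that also changed between settings. *BMP4*, a differentiation factor, had counts of 5669.8 and 4929 in KO 28A and 28B, 6089.6 and 2148 in KO 38A and 38B, and 9149.6, 10282, 10239 and 10415 in WT 11A, 11B, 40A and 40B. All KO libraries were below all WT libraries, yet the log2 difference of −1.19 (adjusted p = 0.088) missed the threshold, whereas DESeq2 called it (−1.09, adjusted p = 0.012). On their own, KO 38 passed in limma (−1.47) and KO 28 did not (−0.92). The call in KO 38 was lost without KO 38B, which had the lowest count (−0.72, adjusted p = 0.067). *TERT*, the catalytic subunit of telomerase, was low, with counts of 3.02 and 1.96 in KO 28A and 28B, 35.1 and 53.2 in KO 38A and 38B, and 48.0, 23.3, 7.90 and 5.01 in WT 11A, 11B, 40A and 40B. KO 28 was lower than KO 38, and the WT clones differed as well, so that neither direction held (−0.36, standard error 1.08). *ASCL2*, a stem cell transcription factor, reached 53.8 and 55.8 in WT 11, 11.9 and 6.26 in WT 40, 0 in 3 KO libraries and 2.59 in KO 38B. It failed the filter on low values, as did *LEF1* (0 to 1.96 in KO and 0 to 12.2 in WT libraries) and *TCF7L1* (0 to 26.2 in KO and 1.92 to 10.0 in WT libraries).

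The KO effect differed between lines for several of these genes in a fit of all 24 libraries. The effect on *RNF43* was −4.76 in HCT116 and −2.96 in SW480 on the log2 scale, and the HT29 effect exceeded these by 4.77 (adjusted p = 1.4e-08) and 2.97 (adjusted p = 4.0e-06). Over all genes, the HT29 effect differed from that of HCT116 for 1003 of 18609 genes tested (5.39%) and from that of SW480 for 2291 (12.3%).

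The 250 bases before the start of each gene, taken from RefSeq (GRCh38.p14), were searched for the TCF/LEF motif CTTTGAT or CTTTGAA on both strands. A promoter was matched for 33 of the 47 genes lower in both clones, and 1 of them held the motif (3.03%). Of the 8 WNT feedback genes and targets lower in both clones, 5 had a promoter. None was available for *AXIN2*, *LGR5* and *WNT11*, which were therefore not searched. Of the 138 matched promoters of genes higher in both clones, 7 held it (5.07%). The shares were 3.51% of 10362 tested genes and 6.03% of all 27303 promoters, so the motif was not more frequent among the lower genes. The match among the lower genes belonged to *NR2F1*, whose promoter is shown for that reason, with the motif in capitals (chr5:93582972-93583221, plus strand):

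NR2F1: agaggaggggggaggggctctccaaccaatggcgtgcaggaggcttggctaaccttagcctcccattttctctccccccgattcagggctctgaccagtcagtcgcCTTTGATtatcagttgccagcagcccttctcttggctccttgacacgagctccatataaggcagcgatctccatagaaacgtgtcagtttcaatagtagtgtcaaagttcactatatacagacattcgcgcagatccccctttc

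A match is a description of the letters only, and WNT response elements that lie further from the start were not searched.

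Further genes lower in both clones were chosen for the size of their fall and form no tested group. *TGFBI*, an extracellular matrix protein induced by TGF-β, was at 128 and 108 in KO 28A and 28B, 75.9 and 75.2 in KO 38A and 38B, and 1608, 1570.2, 2398 and 2189.7 in WT 11A, 11B, 40A and 40B. KO and WT libraries were far apart (log2 difference −4.33, standard error 0.24, adjusted p = 6.6e-05), and the call held in each omission (1.9e-04 to 7.1e-04). *LRIG1*, a brake on ERBB receptors that marks stem cells, had 22.8 to 44.0 in KO and 456 to 703 in WT libraries (log2 difference −4.08, standard error 0.28, adjusted p = 1.8e-04). *SOSTDC1*, a secreted inhibitor of BMP and WNT ligands, had 1.90 to 20.1 in KO and 119 to 299.6 in WT libraries (log2 difference −4.35, standard error 0.62, adjusted p = 0.0087). Both held in each omission (highest adjusted p 0.0022 and 0.040). *GRAMD1A*, a cholesterol transfer protein of the endoplasmic reticulum, had 3.79 to 74.4 in KO and 221 to 613 in WT libraries (log2 difference −4.08, standard error 0.81, adjusted p = 0.039), but its KO clones differed (−2.62 in KO 28 and −5.54 in KO 38) and leaving out any library except KO 28A or KO 28B ended the call (0.028 to 0.12). Of the 16 intestinal stem cell genes tested, 4 were lower in both clones, against 0.315% of all genes (*LGR5*, *AXIN2*, *LRIG1* and *EPHB2*) and 2 were higher, against 1.33%, *ALCAM*, an adhesion molecule, and *HOPX*, a homeodomain gene of slow-cycling stem cells and of differentiated cells. *LGR5*, *AXIN2* and *EPHB2* were already counted among the lower WNT targets above, so the 4 lower genes are no second, independent result. *HOPX* passed the filter on low values only through the KO libraries, so its call could hardly go the other way. The median of the list was −1.39 in KO 28 but −0.092 in KO 38 (−0.072 without KO 38B), and −0.68 between genotypes.

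Some genes of secretory cells were higher in both clones. Of 21 goblet and other secretory lineage genes tested, 6 were higher in both clones and 0 lower, against 1.33% and 0.315% of all genes, and the median log2 difference was 1.65. Without KO 38B, 6 genes of the list passed in both clones. A further 24 members, such as *SPINK4* and *CLCA1*, failed the filter on low values, and a member that passed it through the KO libraries alone had to be higher there, so that the count and median describe the measurable part of the list. The 6 genes were *REG4*, *MUC5AC*, *B3GNT6*, *AGR2* and the transcription factors *KLF4* and *FOXA3*. *MUC5AC*, a gel-forming mucin of the stomach that appears in some colon tumours, was at 5099 and 6067 in KO 28A and 28B, 11341 and 5379 in KO 38A and 38B, and 50.9, 23.3, 72.1 and 52.6 in WT 11A, 11B, 40A and 40B. Every KO library exceeded every WT library by far (log2 difference 7.13, standard error 0.38, adjusted p = 5.7e-05), in both clones (6.88 in KO 28 and 7.37 in KO 38) and in each omission (highest adjusted p 6.7e-04). *AGR2*, a protein disulfide isomerase needed for mucin folding, had counts of 23108 and 16907 in KO 28A and 28B, 13361 and 23166 in KO 38A and 38B, and 1751, 2074, 675 and 1230.1 in WT 11A, 11B, 40A and 40B. The groups did not overlap (log2 difference 3.82, standard error 0.35, adjusted p = 9.5e-04), nor did an omission end the call (0.0014 to 0.0052). *B3GNT6*, the core 3 synthase of mucin glycans, had no read in any WT library. Its counts were 35.2 and 24.5 in KO 28A and 28B and 91.1 and 16.9 in KO 38A and 38B. The KO mean, to which KO 38A contributed most, was at least 13.3-fold higher when WT is set to 3 reads per library. *REG4*, a secreted lectin of enteroendocrine and goblet cells, showed the largest rise among the genes higher in both clones, with 471 and 378 in KO 28A and 28B, 36222 and 36898 in KO 38A and 38B, and 13.4, 8.11, 0 and 3.76 in WT 11A, 11B, 40A and 40B. The groups did not overlap, but KO 38 exceeded KO 28 by 6.43 on the log2 scale, and the log2 difference 9.62 (standard error 1.68, adjusted p = 0.022) was lost on leaving out any library except KO 28A or KO 28B (0.021 to 0.070). *KLF4* passed in both clones (1.24 in KO 28 and 3.65 in KO 38) and not between genotypes (adjusted p = 0.078), and *FOXA3* had 248 to 390.2 in KO and 107 to 124 in WT libraries (1.30). Other secretory genes differed between the clones. *ATOH1*, the transcription factor that commits progenitors to the secretory fate, was at 46.5 and 57.0 in KO 38A and 38B and had no read in the other 6 libraries. *TFF3*, a trefoil peptide of goblet cells, was at 129 and 214 in KO 38A and 38B and at 2.94 and 8.05 in KO 28B and 28A, with a WT maximum of 1.98. Neither passed the filter.

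Of 26 enterocyte and colonocyte genes tested, which mark the absorptive lineage, 3 were higher in both clones and 0 lower, against 1.33% and 0.315% of all genes. The other 23 members failed the filter on low values, and members such as *CEACAM7*, which passed it through the KO libraries, had to be higher there. All 3 were genes of the CEACAM family, cell surface glycoproteins of differentiated colonocytes, whose similar sequences make the split of reads between them uncertain. The median of the list was 1.60, and 6 members were DEGs between genotypes, of which 2 were left with the clone as a random effect. *CEACAM6* was at 6829.5 and 6118 in KO 28A and 28B, 17397 and 13402 in KO 38A and 38B, and 145, 148, 475 and 361 in WT 11A, 11B, 40A and 40B. The groups did not overlap (log2 difference 5.33, standard error 0.48, adjusted p = 8.9e-04). *CEACAM5* had 1228 to 3617 in KO and 9.12 to 150.2 in WT libraries (log2 difference 5.99, standard error 0.88, adjusted p = 0.011) and *CEACAM7* had 44.1 to 596 in KO and 2.03 to 13.8 in WT libraries (log2 difference 5.14, standard error 0.89, adjusted p = 0.022). *CEACAM5* no longer passed in both clones without KO 38B, and the call of *CEACAM7* between genotypes was lost in 5 of 8 omissions (each library of KO 28 and WT 11, and KO 38A, 0.0040 to 0.069). *KRT20* and *LGALS4*, markers of mature colonocytes, had 9565 to 21316 in KO and 1542 to 5791 in WT libraries and 27378 to 34040.5 in KO and 3057 to 13219 in WT libraries, respectively. Both were DEGs between genotypes (2.34 and 2.21), yet each passed in 1 clone on its own, *KRT20* in KO 28 and *LGALS4* in KO 38, and under the random effect for clones their adjusted p was 0.098 and 0.090 (0.041 to 0.10 and 0.042 to 0.12 over the omissions).

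Keratins, the intermediate filaments of epithelia, rose for 3 of 13 tested genes in both clones, and 0 fell, against 1.33% and 0.315% of all genes. *KRT19* had counts of 80057 and 54825 in KO 28A and 28B, 57243 and 95421 in KO 38A and 38B, and 23890.4, 26094, 22344 and 23933 in WT 11A, 11B, 40A and 40B. The lowest KO library was above the highest WT library (log2 difference 1.54, standard error 0.20, adjusted p = 0.0054). *KRT7*, typical of glandular epithelia other than the colon, had 306 to 756 in KO and 70.1 to 114 in WT libraries (log2 difference 2.54, standard error 0.32, adjusted p = 0.0043), and *KRT17*, a keratin of basal and stressed epithelia, had 170.0 to 439.5 in KO and 12.5 to 56.8 in WT libraries (log2 difference 3.51, standard error 0.52, adjusted p = 0.012). The 3 genes passed between genotypes in each omission, with highest adjusted p of 0.026, 0.021 and 0.046, but *KRT17* did not pass in both clones without KO 38B. *KRT19* lost its call when clone was a random effect (adjusted p = 0.072), and *KRT7* and *KRT17* were near the threshold (adjusted p = 0.047 and 0.046). Of 20 catenins, cadherins and desmosome genes, 2 were higher in both clones, against 1.33% of all genes, and 0 without KO 38B, when the log2 differences in KO 38 were 1.11 for *JUP* (adjusted p = 0.12) and 3.83 for *CDH17* (adjusted p = 0.059). *JUP*, γ-CATENIN, the close relative of β-CATENIN in junctions, was at 20019.8 and 19066 in KO 28A and 28B, 19370.1 and 18620.1 in KO 38A and 38B, and 6692, 7893, 9822 and 12417 in WT 11A, 11B, 40A and 40B. The groups did not overlap, and the rise was modest (1.12 in KO 28 and 1.08 in KO 38), with adjusted p = 0.023 between genotypes, which was kept only without KO 38B or WT 40B (0.015 to 0.075). *CDH17*, the liver-intestine cadherin, had counts of 475 and 421 in KO 28A and 28B, 22.8 and 18.2 in KO 38A and 38B, and 0.960, 0, 2.96 and 0 in WT 11A, 11B, 40A and 40B. It passed the filter on low values only through the KO libraries, so its call could hardly go the other way. WT cells were near 0, and KO 28 was far above KO 38 (log2 difference 5.87, standard error 1.15, adjusted p = 0.036, 0.024 to 0.099 over the omissions, kept without KO 38A or KO 38B only).

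Of 27 cystatins, SERPINs and other inhibitors tested, 3 were higher in both clones, against 1.33% of all genes, which was 1 without KO 38B. *CST4*, cystatin S, was at 1565 and 869 in KO 28A and 28B, 1344 and 2102 in KO 38A and 38B, and 3.84, 0, 2.96 and 0 in WT 11A, 11B, 40A and 40B. WT cells had next to no transcript, and both KO clones were far above them, by 9.12 in KO 28 and 9.65 in KO 38 on the log2 scale (log2 difference 9.39, standard error 0.59, adjusted p = 1.2e-04). No omission ended the call (4.4e-04 to 0.0013). *CST4* passed the filter on low values only through the KO libraries, so its call could hardly go the other way. Its paralogue *CST1*, cystatin SN, had 2531 to 6871 in KO and 2.88 to 201 in WT libraries (log2 difference 6.95, standard error 1.11, adjusted p = 0.016), a call that was lost without KO 38A, KO 38B or WT 11B (0.012 to 0.052), and reads may be split between these 2 similar genes. *PI3*, the elastase inhibitor elafin, had 155 to 271 in KO and 21.1 to 88.9 in WT libraries (2.53). Its call between genotypes was kept in 3 of 8 omissions and lost with the clone as a random effect (adjusted p = 0.11). Of 48 enzymes and efflux transporters of xenobiotic metabolism, 5 were higher in both clones, against 1.33% of all genes, or 3 without KO 38B, and the 5 DEGs between genotypes were also 5 with the clone as a random effect. They were *AKR1C2*, a steroid and carbonyl reductase, *CES1*, a carboxylesterase, *CYP2C18*, *FMO5* and *GSTA4*. *CES1*, *CYP2C18* and *FMO5* passed the filter on low values only through the KO libraries. Their calls could hardly go the other way, so the count describes the measurable part of the list. *AKR1C2* was at 1767 and 2158 in KO 28A and 28B, 8496 and 11566 in KO 38A and 38B, and 117, 135, 187 and 298 in WT 11A, 11B, 40A and 40B. KO 38 exceeded KO 28, and both were above WT (log2 difference 4.67, standard error 0.62, adjusted p = 0.0063). *CES1* had 20.7 to 334 in KO and 0 to 0.988 in WT libraries, with KO 28 above KO 38 (8.08 in KO 28 and 4.31 in KO 38), and *GSTA4* had 343 to 1487 in KO and 40.3 to 56.3 in WT libraries (3.70). The counts of *AKR1C2* share reads with the similar genes *AKR1C1* and *AKR1C3*, and those of *FMO5* overlap the span of *CHD1L*.

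Several genes with large rises belonged to none of these groups. *FXYD3*, a regulator of the sodium pump, was at 6312 and 5189.9 in KO 28A and 28B, 4309 and 7710.2 in KO 38A and 38B, and 21.1, 15.2, 82.0 and 115 in WT 11A, 11B, 40A and 40B. All KO libraries were far above all WT libraries, by 7.05 in KO 28 and 7.06 in KO 38 on the log2 scale (log2 difference 7.06, standard error 0.61, adjusted p = 6.3e-04). *VSIG1*, an adhesion molecule of gastric epithelium, had 165 to 628 in KO and 0 to 0.960 in WT libraries (log2 difference 8.02, standard error 0.48, adjusted p = 9.2e-05), and *RAB3B*, a GTPase of regulated secretion, had 47.3 to 1251 in KO and 0 to 2.51 in WT libraries (log2 difference 7.00, standard error 1.11, adjusted p = 0.015, lost without WT 11A). *LUM*, which encodes the collagen-binding proteoglycan lumican, had no read in any WT library and counts of 82.5, 108, 1125 and 1111 in KO 28A, 28B, 38A and 38B, at least 192-fold higher on average when WT is set to 3 reads per library. *LUM* is also 1 of the 10 fibroblast markers, whose summed counts were 119.7 to 1215 in KO and 22.3 to 47.0 in WT libraries. *COL1A1* was at 26.2 to 85.4 in KO and 12.2 to 22.5 in WT libraries, and *COL1A2*, *COL3A1*, *DCN*, *PDGFRA*, *POSTN* and *THY1* had at most 3 reads in every library. *ITGAM*, an integrin of myeloid cells, rose likewise, from 1.25 to 8.64 in WT to 67.4 to 236 in KO libraries (log2 difference 5.05, adjusted p = 0.0034). *VSIG1*, *RAB3B*, *LUM* and *ITGAM* passed the filter on low values only through the KO libraries. Their calls could hardly go the other way. Summed leukocyte markers were 169 to 397 in KO and 23.3 to 329 in WT libraries, mostly from *ITGAM* and *CD14*, and *PTPRC*, which all leukocytes express, had at most 3 reads throughout.

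Interferon-stimulated genes (ISGs) separated the KO clones. They encode antiviral effectors, and their promoters typically carry an interferon-stimulated response element (ISRE). Of 43 ISGs tested, 36 were higher in KO 28 than in WT cells, against 2.94% of all genes. In KO 38, 2 were higher and 4 lower, against 4.64% and 2.91%. The median log2 difference was 2.98 in KO 28 and −0.17 in KO 38. Compared directly, 33 of the ISGs were higher in KO 28 than in KO 38 and 0 lower, against 3.02% and 2.12% of all genes. Between genotypes 2 were higher by limma, against 1.9% of all genes, and 23 by DESeq2, which also called more genes in all. *OAS2*, which makes the activator of RNase L, stood at 5960.5 and 3854 in KO 28A and 28B, 26.6 and 28.5 in KO 38A and 38B, and 11.5, 9.12, 80.0 and 30.1 in WT 11A, 11B, 40A and 40B. KO 28 was high in both rounds and KO 38 within the range of WT (7.66 in KO 28 and 0.26 in KO 38). *IFI27* had counts of 13386 and 9304 in KO 28A and 28B, 227 and 331 in KO 38A and 38B, and 171, 107, 791 and 356 in WT 11A, 11B, 40A and 40B. *MX2*, a GTPase that restricts viruses, had counts of 1911 and 893 in KO 28A and 28B, 3.79 and 10.4 in KO 38A and 38B, and 6.72, 2.03, 34.6 and 12.5 in WT 11A, 11B, 40A and 40B. *IFIT1*, a sensor of foreign RNA, had counts of 5959 and 3051 in KO 28A and 28B, 69.2 and 95.9 in KO 38A and 38B, and 84.5, 79.1, 198 and 116 in WT 11A, 11B, 40A and 40B. In each of these 3 genes both rounds of KO 28 exceeded all other libraries. A further 7 ISGs failed the filter, which asks for at least 10 in 4 libraries, although both rounds of KO 28 were above all other libraries, for example *IFI44L* with 2025 and 1199.6 in KO 28A and 28B, 0 and 0 in KO 38A and 38B, and 2.88, 0, 28.7 and 5.01 in WT 11A, 11B, 40A and 40B.

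Only *ISG20*, an RNA exonuclease, and *GBP2*, a guanylate-binding protein, were higher in both clones. *GBP2* was at 1905 and 1580.3 in KO 28A and 28B, 1077 and 1412 in KO 38A and 38B, and 330.3, 405, 370.5 and 527 in WT 11A, 11B, 40A and 40B. KO and WT did not overlap (log2 difference 1.86, standard error 0.22, adjusted p = 0.0039), and no omission ended the call (0.0058 to 0.019). *ISG20* had counts of 643 and 303 in KO 28A and 28B, 159 and 379.9 in KO 38A and 38B, and 38.4, 31.4, 52.4 and 70.2 in WT 11A, 11B, 40A and 40B. It was a DEG between genotypes (log2 difference 2.82, standard error 0.43, adjusted p = 0.014) except without WT 11A (0.0091 to 0.053), and it did not pass in both clones without KO 38B. Among 20 genes of MHC class I antigen presentation, 7 were higher in KO 28 and 1 in KO 38, against 2.94% and 4.64% of all genes. The gene that rose in both was *HLA-F*, a nonclassical class I gene, with 157 to 329 in KO and 18.8 to 43.6 in WT libraries (log2 difference 3.04, standard error 0.37, adjusted p = 0.0039), which held in each omission (0.0052 to 0.020). Its reads may be shared with related HLA genes.

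The ISRE was searched in the same 250 bases as TTTC followed, after 2 bases of any kind, by another TTTC, which reads as a pair of GAAA on the other strand. It was present in 17 of the 27 matched promoters of ISGs that were higher in KO 28 (63.0%), in 2.23% of tested genes and in 3.07% of all promoters, which is no independent result because the list was made of interferon-inducible genes. Matches of the 2 motifs overlapped in 1 of all promoters. No promoter was available for *OAS2* and *MX2*, which were not searched. The promoters of the 3 matching ISGs with the largest difference in KO 28, and of *ISG20* and *HLA-F*, which rose in both clones, are shown with the element in capitals. They lie at chr13:42992242-42992491 (minus strand), chr1:27672193-27672442 (minus), chr14:94110486-94110735 (plus), chr15:88638766-88639015 (plus) and chr6:29723184-29723433 (plus) of GRCh38.p14:

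EPSTI1: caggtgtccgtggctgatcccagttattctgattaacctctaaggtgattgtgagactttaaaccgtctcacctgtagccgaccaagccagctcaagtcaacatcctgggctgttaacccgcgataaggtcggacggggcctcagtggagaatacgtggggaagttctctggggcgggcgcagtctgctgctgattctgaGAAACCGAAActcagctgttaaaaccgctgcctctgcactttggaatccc
IFI6: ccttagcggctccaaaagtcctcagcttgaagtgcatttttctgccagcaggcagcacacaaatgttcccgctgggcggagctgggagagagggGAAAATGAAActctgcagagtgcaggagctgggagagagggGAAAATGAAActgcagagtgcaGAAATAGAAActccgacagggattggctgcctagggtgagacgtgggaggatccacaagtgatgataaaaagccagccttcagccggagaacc
IFI27: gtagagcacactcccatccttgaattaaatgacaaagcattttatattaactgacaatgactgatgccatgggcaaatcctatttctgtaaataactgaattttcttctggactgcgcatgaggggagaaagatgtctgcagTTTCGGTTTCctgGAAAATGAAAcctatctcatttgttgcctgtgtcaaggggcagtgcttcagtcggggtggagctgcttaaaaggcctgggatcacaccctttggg
ISG20: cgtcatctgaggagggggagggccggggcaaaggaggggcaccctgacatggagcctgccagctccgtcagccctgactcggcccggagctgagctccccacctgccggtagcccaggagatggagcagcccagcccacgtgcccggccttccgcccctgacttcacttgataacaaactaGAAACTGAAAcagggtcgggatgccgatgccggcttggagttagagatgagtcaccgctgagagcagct
HLA-F: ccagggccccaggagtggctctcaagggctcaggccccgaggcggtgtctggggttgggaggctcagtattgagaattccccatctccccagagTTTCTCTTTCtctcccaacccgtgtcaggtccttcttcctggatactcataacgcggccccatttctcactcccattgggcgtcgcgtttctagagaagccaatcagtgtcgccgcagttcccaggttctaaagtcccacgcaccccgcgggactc

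The promoter of *IFI6* held 3 matches, that of *IFI27* held 2 and the others held 1 each. *EPSTI1* had counts of 903 and 507 in KO 28A and 28B, 14.2 and 18.2 in KO 38A and 38B, and 0, 0, 13.8 and 1.25 in WT 11A, 11B, 40A and 40B, and *IFI6* of 12359.5 and 7802 in KO 28A and 28B, 168 and 507 in KO 38A and 38B, and 86.4, 74.0, 332 and 88.9 in WT 11A, 11B, 40A and 40B. In KO 38, *IFI6* (1.31, adjusted p = 0.21) and *EPSTI1* (2.83, adjusted p = 0.11) did not pass, although both were above the WT mean.

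The 25 genes that passed in both clones with opposite directions comprised 17 higher in KO 28 and 8 higher in KO 38. Of the 43 ISGs tested, 3 were among them, against 0.168% of all genes. The following genes were chosen for such differences, and their values are a description. *CHST3*, a chondroitin sulfotransferase, had counts of 669.9 and 628 in KO 28A and 28B, 0 and 0 in KO 38A and 38B, and 60.5, 59.8, 82.0 and 108 in WT 11A, 11B, 40A and 40B. KO 38 was silent and KO 28 above WT. *MTUS2*, a microtubule-associated protein, was at 1905 to 1911 in KO 28, 2.85 to 6.48 in KO 38 and 61.5 to 382 in WT cells. *PPP1R1B*, the phosphatase inhibitor DARPP-32, went the other way, with 1.96 to 6.03 in KO 28, 864 to 2117 in KO 38 and 105 to 356 in WT. *LOXL1*, a lysyl oxidase that crosslinks elastin, had 1143 and 923 in KO 28A and 28B, 1.90 and 0 in KO 38A and 38B, and 892, 1114, 942 and 936 in WT 11A, 11B, 40A and 40B. KO 28 resembled WT, and KO 38 had lost the transcript. *PDE9A*, a cGMP phosphodiesterase, showed the same pattern, with 642 and 617 in KO 28A and 28B, 12.3 and 0 in KO 38A and 38B, and 829, 917, 733 and 869 in WT 11A, 11B, 40A and 40B. In all, 324 genes passed in KO 28 alone and 856 in KO 38 alone, of which 157 and 306, respectively, also differed between the KO clones when these were compared directly.

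Growth-related groups gave few calls between genotypes. Every KO library lay below every WT library for 12 of 46 G2/M and mitosis genes, and above for 0. For the 49 ribosome biogenesis genes these counts were 8 and 0, and for the 56 G1/S and DNA replication genes 2 and 2. Over all genes tested, 13.0% did not overlap in either direction. Of the 46 G2/M and mitosis genes, limma called 0 between genotypes, with 18 at an unadjusted p under 0.05, and DESeq2 called 0. The median was −0.44, and 8 were lower in KO 38 and 0 in KO 28, against 2.91% and 1.05% of all genes, including *FOXM1*, *BUB1B* and *PRC1* (−0.26 in KO 28 and −1.54 in KO 38 for *FOXM1*, −0.16 in KO 28 and −1.30 in KO 38 for *BUB1B* and −0.13 in KO 28 and −1.47 in KO 38 for *PRC1*). The median of the list in KO 38 was −0.64, and −0.65 without KO 38B. Of 56 G1/S and DNA replication genes 1 was lower in KO 28 and 1 in KO 38, against 1.05% and 2.91% of all genes. Their median was −0.16. The 49 ribosome biogenesis genes held 0 calls in either clone by limma and 0 between genotypes by DESeq2, with 9 at an unadjusted p under 0.05 in limma. YAP and TAZ target genes, of which 19 were tested, had 1 lower in KO 28 and 3 lower in KO 38, against 1.05% and 2.91% of all genes, 1 was higher in KO 38, and none passed in both clones. Of 21 chemokines and NF-κB feedback genes, 1 was lower and 1 higher in both clones, against 0.315% and 1.33% of all genes. *CXCL1*, which attracts neutrophils, was lower, at 2.59 to 23.1 in KO and 65.3 to 116 in WT libraries (−2.99). Its call was lost without KO 38A or any WT library (0.029 to 0.13). *IL18*, an epithelial cytokine, was higher, at 209.6 to 464 in KO and 68.9 to 109.7 in WT libraries (1.74). Its call was lost without KO 28A, WT 11A or WT 40B (0.017 to 0.059). Of 23 Notch pathway genes tested, 2 were higher and 0 lower in both clones, against 1.33% and 0.315% of all genes. They were *DLL4*, a ligand, and *MFNG*, a modifier of Notch receptors (3.50 and 2.24 between genotypes). *HES7*, of the same list, was lower between genotypes, at 0 to 4.89 in KO and 18.8 to 27.7 in WT libraries (−2.83, adjusted p = 0.043). Its call was kept in 1 of 8 omissions. *DLL4* and *MFNG* passed the filter on low values only through the KO libraries, and *HES7* through the WT libraries. The call between genotypes was lost in 6 of 8 omissions for *DLL4* (0.022 to 0.088) and in 4 of 8 for *MFNG* (0.025 to 0.070), and with the clone as a random effect for both (adjusted p = 0.082 and 0.16), and *MFNG* did not pass in both clones without KO 38B or with the random effect. *HBEGF*, an EGFR ligand, rose from 129 to 216 in WT to 408 to 1189 in KO libraries (2.07, lost without KO 38A or any WT library, 0.028 to 0.088), and *CHRD*, the BMP antagonist chordin, from 1.98 to 17.2 to 75.2 to 131 (3.64).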

How the data were processed

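RNA-seq was performed on 2 KO and 2 WT clones each of HT29, HCT116 and SW480 cells in 2 rounds. Per the study's methods and the submitters' processing notes, unstranded TruSeq libraries were aligned to GRCh37 with STAR 2.7.5b and counted per gene with featureCounts 2.0.1. The deposited values are a signal per gene, i.e. the counts divided by a DESeq2 size factor per library (Galaxy version 2.11.40.6). They equalled whole reads within 0.001 reads in all 24 libraries. The authors also deposited tables of their own comparisons (means, log2 fold changes and p-values), which were not used. Gene symbols and spans came from a GRCh37 annotation, which matched 95.8% of the 58051 identifiers.

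Values were tested as log2(value + 1) with limma 3.58.1 (trend and robust) in R 4.3.3, for genes with at least 10 in at least 4 of the 8 HT29 libraries. A fold change on this scale understates the change of low genes. DEGs had a Benjamini-Hochberg adjusted p under 0.05 over all genes tested and an absolute log2 difference over 1. Models had 2 groups (genotype), 3 groups (WT, KO 28, KO 38) or, for differences between lines, the 6 groups of all 24 libraries. Alternatives included the clone as a random effect, averaged rounds, DESeq2 1.42.0 and edgeR 4.0.16 on recovered reads, TMM scaling, pseudocounts of 0.1 and 5, other filters, the round as a block and the omission of each library or clone. List counts without KO 38B were added after seeing the data. The scripts were tested on simulated data.

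The named genes were those the study examined, the 8 largest rises and 8 largest falls among DEGs that passed in both clones without overlap at a mean of at least 100, the 4 largest opposite changes (1 of which is not reported here), 4 genes of a single clone and up to 4 genes per list. Genes named beyond this rule were chosen after their values were seen. The members and lists were chosen with earlier results of these data known. Counts limit precision at low values, and at most 3 reads were treated as the floor. Promoters were taken from RefSeq (GRCh38.p14), and genes absent from that table were left out of motif counts.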

Additional observations from a re-analysis of the deposited data

Results flagged for a closer look

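In groups of 4 libraries, a value was looked at again when its gap to the nearest library, divided by the range of the group, exceeded Dixon's 95% critical value, which chance gives for about 1 in 20 groups. This applied to 7 of 71 groups. KO 38A was the highest KO library for *TCF7* (0.860), *MUC5AC* (0.845) and *RNF43* (0.831). Its partner KO 38B was the highest for *ASCL2* (1.0) and KO 28B for *LEF1* (1.0), in both cases with the other KO libraries at 0. Among WT libraries, WT 11A was the lowest for *BMP4* (0.861) and the highest for *VSIG1* (1.0), where the other WT libraries had no read.

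The log2 effect of the KO differed between HT29 and another line by test for 5 of the genes that the study examined. Over all genes that the study examined, 26 differences between lines were looked at, and those that passed are given below. Of all genes tested, 5.39% differed from HCT116 and 12.3% from SW480. The HT29 effect minus that of HCT116 was 4.77 for *RNF43* (adjusted p = 1.4e-08), 3.15 for *BMP4* (adjusted p = 0.0021), 1.65 for *TCF7L2* (adjusted p = 9.3e-05) and 1.44 for *CTNNB1* (adjusted p = 2.9e-05). Relative to SW480 it was 2.97 for *RNF43* (adjusted p = 4.0e-06) and 1.21 for *CTNNB1* (adjusted p = 6.8e-05). For *ASCL2*, which failed the filter on low values in HT29 cells alone but entered the fit of all lines, the HT29 effect minus that of HCT116 was −4.49 (adjusted p = 0.0022) and minus that of SW480 3.79 (adjusted p = 0.0039). HT29 cells had a mean count of 31.9 in WT and 0.648 in KO libraries. The means of HCT116 were 0 (WT) and 0.535 (KO), those of SW480 were 444 (WT) and 1.18 (KO), and with counts near 0 the size of these differences depends on the pseudocount. *CTNNB1* fell in all 3 lines, by 4.33 in HT29, 5.77 in HCT116 and 5.54 in SW480 on the log2 scale, so that HT29 had the smallest fall. The adjusted p-values are from limma with Benjamini-Hochberg adjustment over 18609 genes.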

How the results depend on the processing

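The number of DEGs between KO and WT depended on the model. It changed from 343 (283 higher, 60 lower) to 121 (102 and 19) with the clone as a random effect, to 826 (684 and 142) with DESeq2, to 212 (178 and 34) for genes with at least 10 in every library and to 1018 (753 and 265) with all 24 libraries in the fit. With averaged rounds each count was 0 in limma, whereas 902 genes in KO 28 and 2022 in KO 38 had an unadjusted p under 0.05. The comparisons of single clones gave 1000 (KO 28) and 1812 (KO 38) DEGs with DESeq2 and 1148 and 2384 with 24 libraries. Genes that passed in both clones numbered 397, 156 and 470 with DESeq2, the filter in every library and 24 libraries, and those with opposite directions 16 with the random effect and 55, 12 and 86 in these settings. Genes with a KO effect that differed between lines fell from 1003 to 433 (HCT116) and from 2291 to 1399 (SW480) with the random effect, and to 526 and 903 under the filter in every library. The filter tested fewer genes, and the cause of the other shifts was not tested. Pseudocounts of 0.1 and 5, edgeR and TMM scaling kept the counts within 1.5 times.

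Leaving out single libraries gave 145 to 331 DEGs (125 to 278 higher, 20 to 53 lower), 103 to 655 in KO 28, 435 to 3531 in KO 38, 57 to 270 in both clones and 5 to 44 with opposite directions. Without clone KO 28, 647 DEGs were found (259 lower), without KO 38 648 (474 higher, 174 lower), and without WT 40 213 (183 and 30). With WT 40 as the only control clone, KO 28 and KO 38 had 936 and 2238 DEGs, 561 shared and 49 opposite, and with WT 11 alone KO 28 had 1287, with 433 shared and 50 opposite.

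The round as replicate block gave 217 DEGs (186 higher, 31 lower). The rounds share a letter only, since the differences between rounds A and B correlated with r = −0.31 to 0.42 between clones over genes, and not every pair of clones was positive.

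Of 54 called genes chosen by the naming rule, 30 kept their call with the random effect, 54 with DESeq2, 45 with edgeR, 38 with the block and 45 without KO 38B, and in these settings none of them changed direction. Directions changed for uncalled differences. *RNF43* (0.0099) went to −0.040 with TMM, −0.26 without KO 38 and −0.093 without WT 40, and ranged over −0.21 to 0.13 without single libraries. *TERT* (−0.36) went to 0.14 with DESeq2, 0.078 with edgeR, 1.48 without KO 28 and 0.75 without WT 11 (−1.08 to 0.32). *TCF7L2* went to −0.14 without KO 38 (−0.021 to 0.17), and *MYC* ranged over −0.22 to 0.030. In KO 38, *OAS2* went to −0.25 with DESeq2, −0.28 with edgeR and −0.81 without WT 11 (−0.15 to 0.85), and *MX2* to 0.61 without WT 40 (−1.10 to 0.14), whereas *LOXL1* in KO 28 ranged over −0.068 to 0.24. Genes with few reads, such as *TERT*, *ASCL2* and *LEF1*, allow no statement on small differences at this depth.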

Other observations

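Further genes that passed in both clones are described here. They were chosen after their values were seen and form no tested group. Regulators of complement were higher in KO cells. *CD55*, which dissolves C3 convertases on the cell surface, was at 15121 and 13825 in KO 28A and 28B, 33198 and 26619 in KO 38A and 38B, and 1432, 1238, 3217 and 2282 in WT 11A, 11B, 40A and 40B (log2 difference 3.45, adjusted p = 0.0024). *C4BPA* and *C4BPB*, the chains of the soluble C4b-binding protein, had 111 to 241 in KO and 1.25 to 9.60 in WT libraries (log2 difference 5.01, adjusted p = 0.0015) and 468 to 3486 in KO and 35.1 to 63.9 in WT libraries (log2 difference 4.69, adjusted p = 0.0050). For all 3 genes every KO library exceeded every WT library. *C4BPA* passed the filter on low values only through the KO libraries, so its call could hardly go the other way.

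Enzymes that build mucin-type O-glycans were higher as well. *ST6GALNAC1*, the sialyltransferase that makes the sialyl-Tn antigen, was at 174 and 256 in KO 28A and 28B, 272 and 209 in KO 38A and 38B, and 2.88, 3.04, 1.98 and 2.51 in WT 11A, 11B, 40A and 40B (log2 difference 5.98, adjusted p = 2.8e-05). It passed the filter on low values only through the KO libraries, so its call could hardly go the other way. *GALNT1*, which starts O-glycan chains, had 1167 to 1925 in KO and 239 to 542 in WT libraries (log2 difference 2.17, adjusted p = 0.0047), and *GALNT5*, of the same family, was far higher in KO 38 than in KO 28 (3.59 in KO 28 and 7.80 in KO 38). *CAPN9*, a calpain of the digestive tract, had 259 to 984 in KO and 4.80 to 18.8 in WT libraries (log2 difference 5.79, adjusted p = 9.5e-04).

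*GLI1*, a transcription factor and target of the hedgehog pathway, had 135 to 219 in KO and 37.6 to 46.4 in WT libraries (log2 difference 2.03, adjusted p = 0.0032), whereas *KIF7*, a kinesin of the cilium that regulates GLI proteins, had 44.1 to 70.5 in KO and 349.7 to 452 in WT libraries (log2 difference −2.70, adjusted p = 4.9e-04). *ROR1*, a receptor for WNT5A, fell (235 to 427 in KO and 1646 to 2566 in WT libraries, log2 difference −2.60, adjusted p = 6.7e-04). *HOXD13*, a homeobox gene of the posterior body, had no read in any KO library and 13.8 to 72.0 in WT libraries. It passed the filter on low values only through the WT libraries, so its call could hardly go the other way. *NNMT*, nicotinamide N-methyltransferase, and *FGF19*, a hormone that controls bile acid synthesis, were lower in both clones but much more so in KO 38 (−3.14 in KO 28 and −9.00 in KO 38 for *NNMT*, and −1.41 in KO 28 and −8.64 in KO 38 for *FGF19*), and neither passed between genotypes (adjusted p = 0.062 and 0.19).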
